A study of Drosophila melanogaster with 5 samples.

Results

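The genes described here have roles in copying DNA or in the cell cycle, and were measured in the Drosophila melanogaster salivary gland, a tissue of polytene cells. They were chosen by name: the fork proteins PCNA and RPA1, the helicase subunits Mcm2, Mcm5, Mcm6 and Mcm7, the G1 cyclins CycE and CycD, and fzy and fzr, which activate the anaphase-promoting complex (APC). A probe set, the group of oligonucleotides that measures a transcript on an Affymetrix array, was taken where the platform annotation gave one of these 10 genes as its only symbol. This found 11 of the 18769 probe sets that are not array controls, for 9 of the 10 genes, among 11982 genes with such a probe set. The gene fzy had 3. For Mcm7 no probe set was analysed here, and a further probe set that fzr shares with BaraC was left out (intensities of 21.0, 17.2 and 9.90 on the Fkh-labelled arrays and 18.6 and 12.7 on the w1118 arrays).

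The 5 arrays hold total RNA of dissected prepupal salivary glands in 2 groups. In the first, 3 arrays are labelled as glands expressing fork head (fkh), a forkhead transcription factor gene, from the heat-inducible transgene P{hs-Fkh111}. The second has 2 arrays of w1118, a white-eyed laboratory strain without that transgene in its label. The titles give it as w1118(3), where the number in brackets is unexplained. All animals, w1118 included, were raised at 25 °C, given a heat shock of 30 min at 37 °C when 9.5 h had passed since puparium formation, and their glands were taken at 14 h. A heat-inducible promoter is not restricted to the gland, and the sources used here do not give how many animals made up a sample. The submitters call the samples biological replicates. By its title the series looks for genes that Fork head controls at this stage, and the comparison used here is of the Fkh-labelled with the w1118 arrays. All 5 arrays are of animals given the heat shock, so no array holds the transgene without it. Effects of fkh expression, of the inserted transgene and of the strain cannot be told apart in this design.

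Larval salivary gland cells grow by the endocycle, in which rounds of DNA synthesis follow each other without mitosis and the chromosome copies stay aligned as polytene chromosomes. The Mcm proteins form a ring-shaped helicase that is loaded at origins, PCNA is the sliding clamp that holds polymerases on DNA, and RPA1 is the large subunit of the complex that coats single-stranded DNA. CycE with the kinase Cdk2 starts S phase, and CycD with Cdk4 promotes growth and cell cycle entry. The APC marks proteins such as the mitotic cyclins for destruction: fzy (the Cdc20 protein of the fly) directs it in mitosis, and fzr (Cdh1) directs it in G1 and is needed for the change from mitotic cycles to endocycles.

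The arrays separated by group, with a standard deviation of probe set differences of 0.28 to 0.45 between arrays of one group and of 1.16 to 1.21 between groups on the log2 scale. The fkh probe set went against the label, with 41.5, 47.0 and 58.3 on the Fkh-labelled arrays and 130 and 120 on the w1118 arrays (log2 difference -1.13, limma adjusted p = 0.0026). Whether this probe set lies in the part of fkh carried by the transgene is not known here, so the groups are named by their labels, and every direction below rests on those labels. The actin 3' to 5' ratio, which follows RNA quality and labelling, was 4.94, 4.30 and 3.37 on the Fkh-labelled arrays and 2.47 and 2.54 on the w1118 arrays. The eIF-4a ratio separated the groups too (1.68 to 2.35 on the Fkh-labelled and 1.53 and 1.55 on the w1118 arrays), whereas the Gapdh ratio overlapped (1.56, 1.14 and 1.11 on the Fkh-labelled and 1.16 and 1.14 on the w1118 arrays). The bioB hybridisation control had 434, 455 and 746 on the Fkh-labelled arrays and 700 and 681 on the w1118 arrays, so Fkh-labelled arrays 1 and 2 stand apart from the other 3. Gland markers were bright: 10 genes summed to 35022.5 to 37093 on the Fkh-labelled arrays against 11834 and 15081 on the w1118 arrays. Of the 10 genes, all tested, 7 rose and 1 fell, beside 21.5% and 19.3% of all genes tested. Sgs3, Sgs4 and Sgs5 rose, with means of 5934, 8250 and 10172 on the Fkh-labelled arrays against 867, 2203 and 818 on the w1118 arrays. Sgs7 fell, with means of 2676 on the Fkh-labelled and 4043 on the w1118 arrays (limma adjusted p = 0.042). Markers of other tissues were present. The summed intensity of 7 fat body genes was 12271 to 13927 on the Fkh-labelled arrays against 22475 and 23989 on the w1118 arrays. For 10 haemocyte genes it was 2087 to 2631 on the Fkh-labelled arrays against 4022 and 4065 on the w1118 arrays, and for 6 tracheal genes 3126 to 3390 on the Fkh-labelled arrays against 5012 and 5591 on the w1118 arrays. Among the genes of these lists that were tested, 3 of 7, 4 of 8 and 3 of 5 fell and 0 rose, beside 19.3% and 21.5% of all genes tested. The largest falls were those of Obp44a (log2 difference -1.94), NimC4 (-1.97) and verm (-1.60). The haemocyte gene NimC1, which fell, had a Fkh-labelled mean of 30.7, under the limit of 33.2 of the filter on low signal. It was tested only because it is high on the w1118 arrays (87.0 and 59.3). Of the fat body sum, Obp44a made up 1275 to 2030 on the Fkh-labelled arrays and 7013 and 5954 on the w1118 arrays. Lsp2, Fbp1, Fbp2 and FASN1 were also lower on every Fkh-labelled array, whereas apolpp and bmm overlapped between the groups. Of the haemocyte sum, crq made up 903 to 1565 on the Fkh-labelled arrays and 2259 and 2311 on the w1118 arrays. NimC4 made up 192 to 250 on the Fkh-labelled arrays and 953 and 872 on the w1118 arrays. The haemocyte genes He (0.14) and ush had positive differences that did not pass. No marker was at 0, but the haemocyte genes Hml and eater and the tracheal gene Osi9 were under the filter on low signal. None of 3 muscle and 3 gut genes tested passed, with differences from -0.23 (Act87E) to 0.19 (bt) and from 0.053 (betaTry) to 0.39 (Mex1), and 3 and 4 more were under the filter. Among gland genes the differences ran from -0.64 (Sgs8, not passing) to 4.76 (ng1, which rose and was under the filter limit on both w1118 arrays). The highest among the genes of fat body, haemocytes and trachea were those of bmm (-0.16), ush (0.60) and btl (0.57), none of which passed.

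In the following, SE is the standard error of a log2 difference from limma. Differences are Fkh-labelled minus w1118 on the log2(intensity + 16) scale, so the change of dim probe sets is understated. Rose and fell mean a Benjamini-Hochberg adjusted p under 0.05 from limma over all 11261 probe sets above the filter on low signal. Of the 11 probe sets, 10 passed that filter, and of these 3 rose, 2 fell and 5 did not pass the test. Of the 3 rises, 1 is that of the fzy probe set second in brightness, which passed the filter only through the Fkh-labelled arrays. Over all 11261 probe sets 20.7% rose, 18.7% fell and 39.4% changed in either direction, so the share of 5 in 10 is near the background of this comparison. The median difference of the 10 was -0.20, against -0.0051 over all probe sets. The groups did not overlap for 7 of the 10, with 4 lower and 3 higher on the Fkh-labelled arrays. That fzy probe set is among the 3. Of all probe sets tested, 63.7% did not overlap, with 32.1% lower and 31.6% higher. In bulk tissue, fewer cells of a type and less RNA per cell cannot be told apart.

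**Figure D1:**
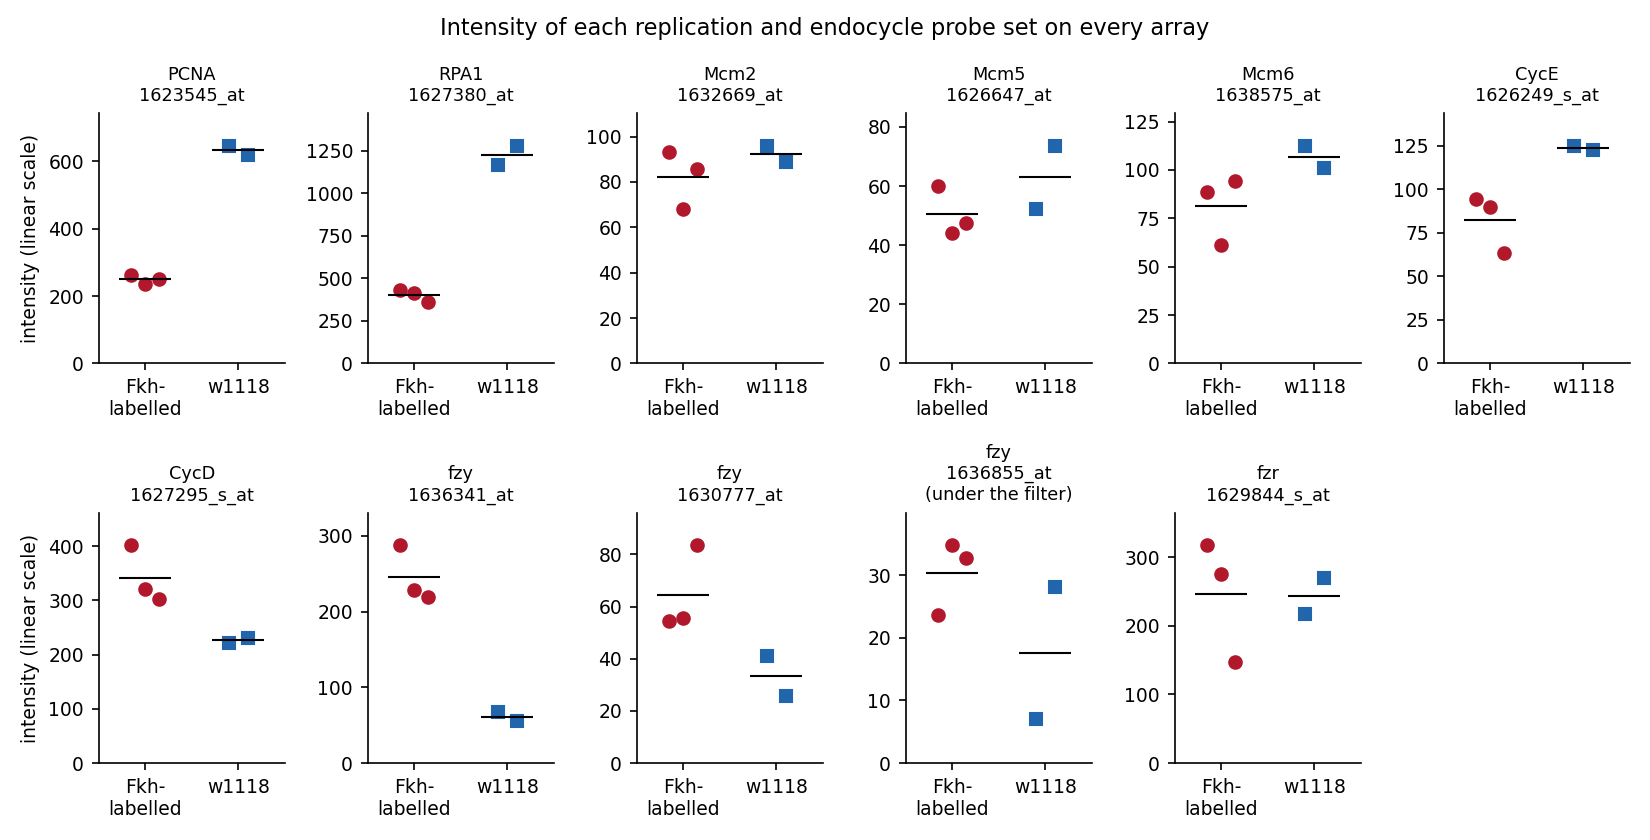
Intensity (linear scale, from 0) of each of the 11 probe sets on every array, with the 3 Fkh-labelled arrays as circles, the 2 w1118 arrays as squares and the group mean as a line. PCNA and RPA1 lie far below w1118 on all 3 Fkh-labelled arrays and the first fzy probe set far above it, while the points of Mcm2, Mcm5, the dimmest fzy probe set and fzr overlap.

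Both fork proteins fell. PCNA had intensities of 263, 236 and 252 on the Fkh-labelled arrays, against 647 and 618 on the w1118 arrays. The Fkh-labelled mean of 250.3 ± 13.3 (SD, n = 3) stands against a w1118 mean of 632 ± 20.2 (SD, n = 2), which is 2.53-fold lower, and the gap is many times the spread within either group. The log2 difference was -1.28 with an SE of 0.14 (limma adjusted p = 0.00076). RPA1 had 429, 416 and 360 on the Fkh-labelled arrays, against 1166 and 1279 on the w1118 arrays. All 3 lay below both w1118 arrays, and the Fkh-labelled mean of 402 ± 36.7 (SD, n = 3) was 3.04-fold below the w1118 mean of 1223 ± 79.6 (SD, n = 2). Here the log2 difference was -1.57 with an SE of 0.16 (limma adjusted p = 0.00045). The adjusted p stayed between 0.00029 and 0.0182 for PCNA and between 0.00017 and 0.0095 for RPA1 over the 15 processing alternatives, which include leaving out each array. The lower summed intensities of the fat body, haemocyte and tracheal lists and the higher actin 3' to 5' ratio given above go with the same arrays. Their part in these falls was not tested.

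The partners of RPA1 in the single-strand binding complex differed. RPA2, the middle subunit, fell, with 45.3, 60.9 and 68.1 on the Fkh-labelled arrays against 194 and 164 on the w1118 arrays (log2 difference -1.41, SE 0.19, limma adjusted p = 0.0017). The smallest subunit, RPA3, did not pass the test, with 265, 197 and 187 on the Fkh-labelled arrays against 211 and 176 on the w1118 arrays (log2 difference 0.14, 95% interval -0.33 to 0.61). Its sign turned without Fkh-labelled array 1, where the difference was -0.0042.

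None of the helicase subunits Mcm2, Mcm5 and Mcm6 passed the test. Mcm2 had 93.0, 68.2 and 85.7 on the Fkh-labelled arrays and 96.0 and 88.7 on the w1118 arrays, so the groups overlapped. Its log2 difference was -0.15 with a 95% interval of -0.56 to 0.26 (limma adjusted p = 0.53). Mcm5 also overlapped, with 59.9, 44.0 and 47.5 on the Fkh-labelled arrays against 52.2 and 73.7 on the w1118 arrays. The log2 difference of Mcm5 was -0.24, and its 95% interval of -0.70 to 0.22 includes no change (limma adjusted p = 0.36). For Mcm6 the groups did not overlap: the Fkh-labelled arrays had 88.6, 61.2 and 94.4, and the w1118 arrays 113 and 101. The spread among the Fkh-labelled arrays was large beside that gap, and the log2 difference of -0.35 (95% interval -0.83 to 0.13) did not pass the test (limma adjusted p = 0.21). The intervals reach well below 0, so the arrays do not show that the 3 genes were unchanged. All 3 differences were negative in every alternative in which they were tested, and none passed in any.

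RPA1 and Mcm2 are neighbours on chromosome arm 3R in the RefSeq annotation of assembly Release 6 plus ISO1 MT. As given above, RPA1 fell and Mcm2 did not pass the test. The log2 value of RPA1 less that of Mcm2 was 2.03, 2.36 and 1.89 on the Fkh-labelled arrays, against 3.40 and 3.63 on the w1118 arrays, a difference of -1.42. The groups did not overlap, and an exact two-sided permutation test gave p = 0.2, the smallest that 3 against 2 arrays allow. It was 1 of 3 such pairs examined, and the Benjamini-Hochberg adjusted p over the 3 is also 0.2.

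**Figure D2:**
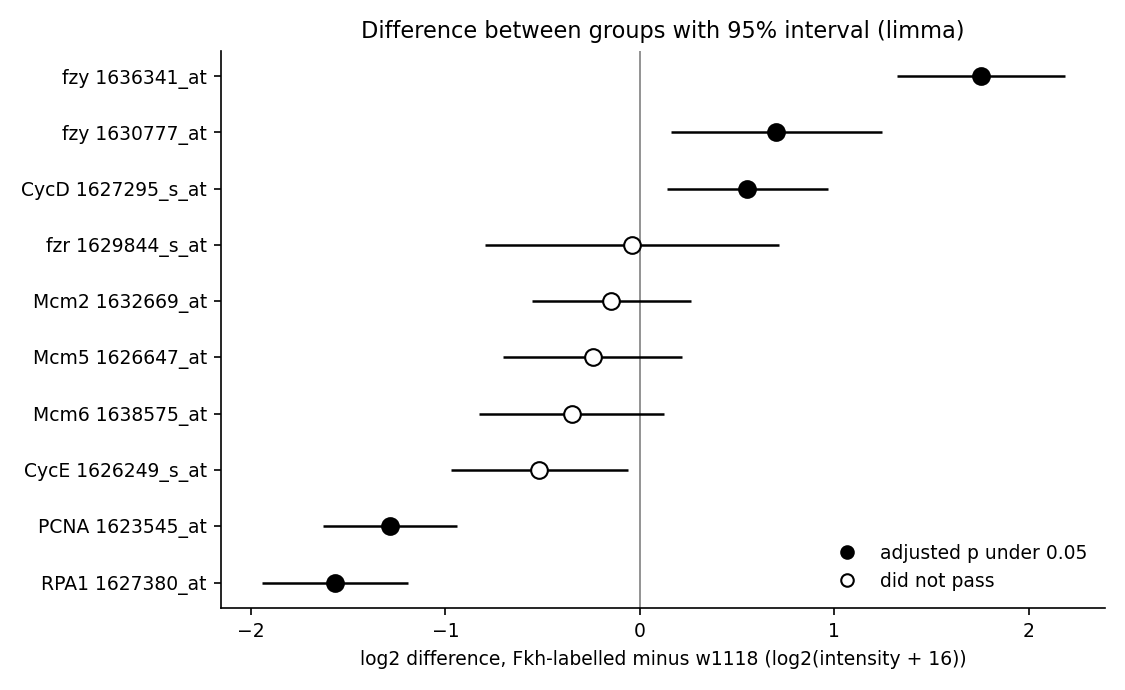
Log2 difference, Fkh-labelled minus w1118, of the 10 probe sets that were tested, with its 95% interval from limma; filled points passed an adjusted p under 0.05. RPA1 and PCNA lie at -1.57 and -1.28, the brightest fzy probe set at 1.75, and the intervals of Mcm2, Mcm5, Mcm6 and fzr include 0.

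The G1 cyclins pointed in opposite directions, and both differences were small. CycE had 94.6, 89.8 and 63.5 on the Fkh-labelled arrays, against 125 and 122 on the w1118 arrays. All 3 lay below both w1118 arrays, but the log2 difference of -0.52 with an SE of 0.19 missed the threshold (limma adjusted p = 0.0713). CycD had 401, 322 and 302 on the Fkh-labelled arrays, against 222 and 231 on the w1118 arrays, and rose by 1.51-fold in mean intensity. Its log2 difference was 0.55 with an SE of 0.17 (limma adjusted p = 0.0439). The call depends on the arrays used: leaving out Fkh-labelled array 1 or 2 gave an adjusted p of 0.126 or 0.0872, and leaving out w1118 array 1 or 2 gave 0.169 or 0.134, whereas CycD still passed without Fkh-labelled array 3 (0.0286). With quantile normalization it was 0.070. The log2 value of CycD less that of CycE was 1.92, 1.67 and 2.00 on the Fkh-labelled arrays and 0.76 and 0.83 on the w1118 arrays, with no overlap (difference 1.07, exact two-sided permutation p = 0.2, the smallest possible). Both probe sets carry the suffix _s_at, which Affymetrix gives to probes that match more than 1 transcript.

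The mitotic activator fzy rose and the endocycle activator fzr did not pass the test. The brightest of the 3 fzy probe sets had 287, 229 and 220 on the Fkh-labelled arrays, against 67.7 and 55.0 on the w1118 arrays. Its Fkh-labelled mean of 245 ± 36.6 (SD, n = 3) was 4.0-fold above the w1118 mean of 61.3 ± 9.0 (SD, n = 2), and no array crossed between the groups. The log2 difference was 1.75 with an SE of 0.18 (limma adjusted p = 0.00051, and 0.00028 to 0.0131 over the alternatives).

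The other probe sets of fzy were dimmer and showed smaller differences. The second in brightness had 54.6, 55.7 and 83.4 on the Fkh-labelled arrays, against 41.2 and 25.8 on the w1118 arrays. It rose by 0.70 with an SE of 0.23 (limma adjusted p = 0.0485), a call that was lost whichever array was left out: leaving out Fkh-labelled array 1, 2 or 3 gave an adjusted p of 0.0713, 0.0742 or 0.0722, and w1118 array 1 or 2 one of 0.0607 or 0.253. The dimmest was under the filter, with 23.6, 34.7 and 32.8 on the Fkh-labelled arrays against 7.09 and 28.1 on the w1118 arrays, and the groups overlapped. The second probe set passed the filter through the Fkh-labelled arrays, since its w1118 mean of 5.61 on the log2 scale lay just under the limit of 5.62. Fitted without the filter, the dimmest probe set's log2 difference was 0.53 (limma adjusted p = 0.24). Where on the transcript each of the 3 probe sets lies is not known here. The mean of all 3 gave a log2 difference of 0.995 (limma adjusted p = 0.0020).

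For fzr the Fkh-labelled arrays disagreed with each other. They had 317, 275 and 147, and the w1118 arrays 217 and 269. The third Fkh-labelled array was below both w1118 arrays and the first 2 above them. The log2 difference was -0.041 with an SE of 0.32 (limma adjusted p = 0.93), and its 95% interval of -0.80 to 0.72 is the widest of the 10. Its sign turned without Fkh-labelled array 3, where it was 0.27, without w1118 array 2 (0.10), with median centring (0.0021) and with the replicate number as a block (0.27). The log2 value of fzy at its brightest probe set less that of fzr was -0.13, -0.25 and 0.53 on the Fkh-labelled arrays and -1.48 and -2.00 on the w1118 arrays. These did not overlap (difference 1.79, exact two-sided permutation p = 0.2, the smallest possible).

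**Figure D3:**
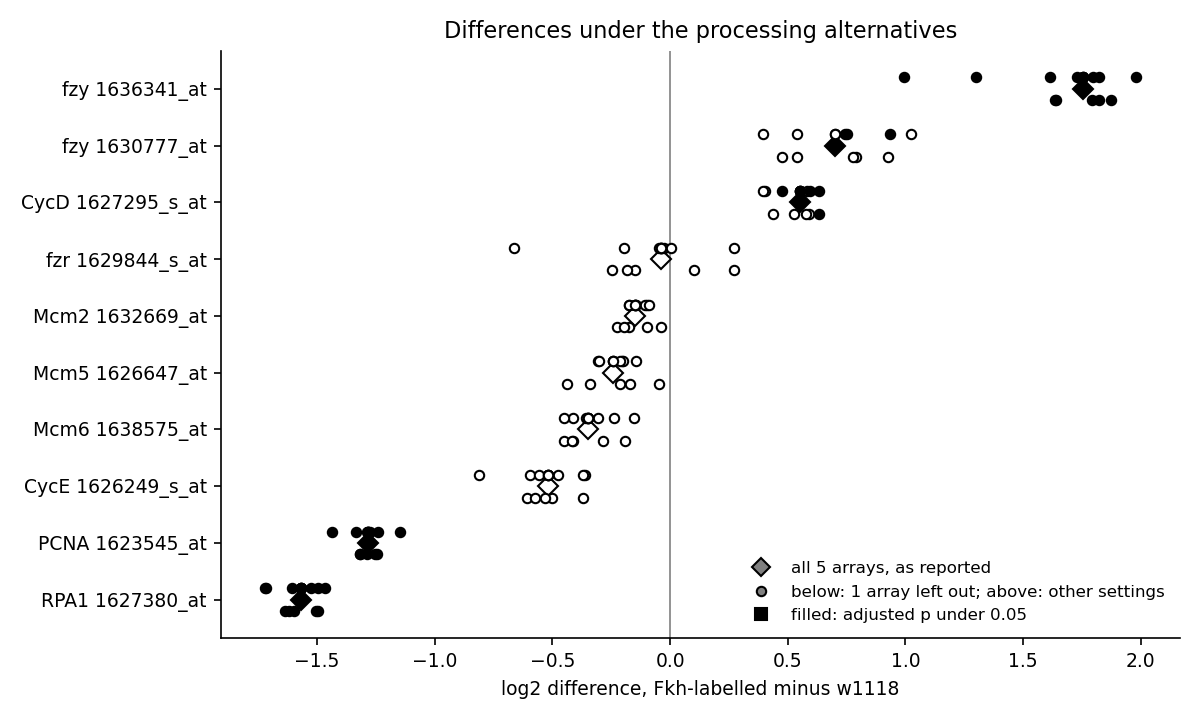
Log2 difference, Fkh-labelled minus w1118, of the 10 probe sets under the processing alternatives. Diamonds are the values with all 5 arrays, circles below them leave out 1 array each, circles above them are the other settings, and filled marks passed an adjusted p under 0.05. RPA1, PCNA and the brightest fzy probe set are filled throughout, CycD and the second fzy probe set in part, and fzr lies on both sides of 0.

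The other genes of these pathways were read from 7 lists of textbook members, with 1 probe set a gene. Of 109 listed genes, 76 were tested, 15 were under the filter and 18 had no probe set of 1 symbol analysed here. Of the 76, 12 rose and 19 fell, or 15.8% and 25.0%, beside 21.5% and 19.3% of all 8298 genes (40.8% in either direction). These shares over all genes are also the background for the counts of each list below. The median difference was -0.27, against -0.010 over all genes. Of these calls, 2 rises (Cdc45 and Psf3) and 2 falls (Ts and cort) are of genes that passed the filter only through the group where they are high. The counts depend on the arrays used: 6 rose and 10 fell without w1118 array 1, 7 and 8 without w1118 array 2, 10 and 12 without Fkh-labelled array 1, 12 and 9 without Fkh-labelled array 2, and 12 and 20 without Fkh-labelled array 3.

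**Figure D4:**
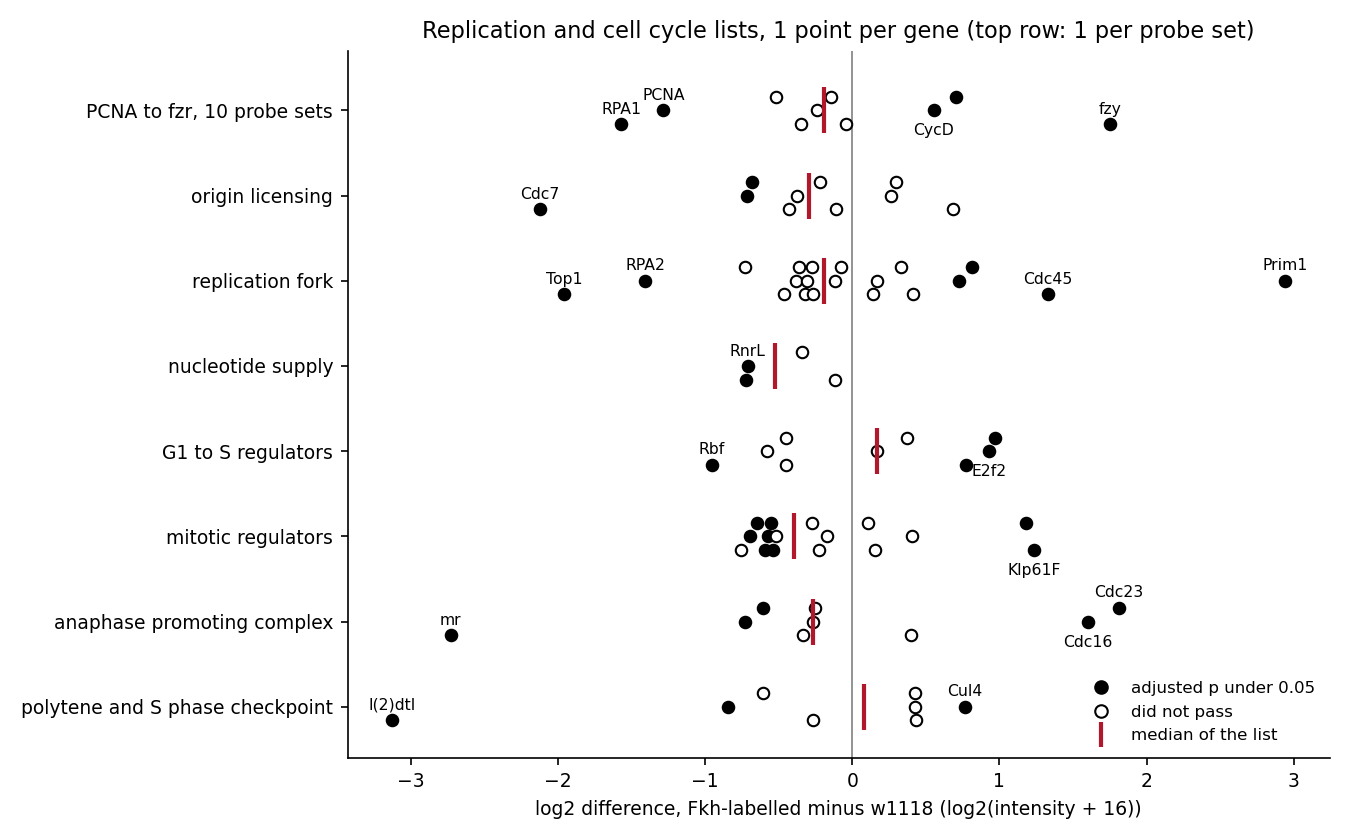
Log2 difference, Fkh-labelled minus w1118, of the 10 probe sets from PCNA to fzr (top row) and of the tested genes of 7 lists of replication and cell cycle genes, with a red bar at each median and filled points for an adjusted p under 0.05. Most genes lie within 1 of 0, with l(2)dtl (-3.13), mr (-2.73) and Cdc7 (-2.12) farthest to the left and Prim1 (2.94), Cdc23 (1.81) and Cdc16 (1.60) farthest to the right among the lists.

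Of 10 genes that license origins, 3 fell and 0 rose. Cdc7, the kinase that lets loaded helicases start, had 156, 112 and 133 on the Fkh-labelled arrays, against 469 and 845 on the w1118 arrays, with no overlap. Its log2 difference was -2.12 with an SE of 0.27 (limma adjusted p = 0.0013). The helicase subunits Mcm3 and dpa (the Mcm4 protein of the fly) fell by 0.68 and 0.72. Mcm3 had 50.4 to 59.99 on the Fkh-labelled arrays against 115 and 85.4 on the w1118 arrays, and dpa 102, 70.4 and 57.2 on the Fkh-labelled arrays against 126 and 141 on the w1118 arrays. Their limma adjusted p was 0.0213 and 0.0442, and neither call was independent of the arrays. For Mcm3 it was 0.0503 or 0.0703 when Fkh-labelled array 1 or 2 was left out and 0.135 when w1118 array 1 was. For dpa it was 0.110 or 0.0685 when Fkh-labelled array 2 or 3 was left out and 0.124 or 0.181 when w1118 array 1 or 2 was. All 5 helicase subunits measured thus had negative differences, from -0.72 to -0.15, of which 2 passed. The loading factors Orc1, dup (Cdt1) and Cdc6 did not pass, at -0.43, -0.37 and 0.68, nor did Mcm10 at -0.11. Without Fkh-labelled array 2 Cdc6 passed (log2 difference 0.89, limma adjusted p = 0.0382), and without w1118 array 1 the sign of Mcm10 turned (0.011). Both w1118 arrays, at 32.8 and 23.3, lay under the filter's limit of 33.2 for Cdc6. It was tested only because it is high on the Fkh-labelled arrays.

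Of 20 other fork genes, 4 rose and 2 fell, beside 21.5% and 19.3% of all genes tested. Prim1, the catalytic subunit of primase, rose, with 749, 729 and 910 on the Fkh-labelled arrays against 93.9 and 84.6 on the w1118 arrays, an 8.92-fold higher mean. The log2 difference was 2.94 with an SE of 0.17 (limma adjusted p = 3.9e-05). Cdc45 and Psf3 belong with the Mcm ring to the active helicase, and both rose. Both w1118 arrays lay under the filter's limit, an intensity of 33.2, for either gene, so these genes were tested only because they are high on the Fkh-labelled arrays. Cdc45 had 113, 107 and 58.6 on the Fkh-labelled arrays against 24.2 and 27.9 on the w1118 arrays (log2 difference 1.33, limma adjusted p = 0.0077, and 0.0546 without w1118 array 1). Psf3 had 53.5, 47.4 and 53.4 on the Fkh-labelled arrays against 28.2 and 21.4 on the w1118 arrays (log2 difference 0.73, limma adjusted p = 0.0109, and 0.0755 without w1118 array 2). Fen1, which trims Okazaki fragments, rose by 0.82, with an adjusted p of 0.0369 that became 0.102 or 0.0730 when Fkh-labelled array 1 or 3 was left out and 0.0623 or 0.199 when w1118 array 1 or 2 was. The topoisomerase gene Top1 fell, with 786, 832 and 479 on the Fkh-labelled arrays against 2374 and 3035 on the w1118 arrays (log2 difference -1.96, SE 0.27, limma adjusted p = 0.0018).

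Of 4 genes of nucleotide supply, 2 fell and 0 rose. RnrL, the large subunit of ribonucleotide reductase, had 121, 122 and 136 on the Fkh-labelled arrays, against 209 and 225 on the w1118 arrays. It fell by 0.71 (limma adjusted p = 0.0095, and 0.0618 without w1118 array 2). The thymidylate synthase Ts fell by 0.73, with means of 29.6 on the Fkh-labelled and 58.8 on the w1118 arrays (limma adjusted p = 0.0219, and 0.0681, 0.119 and 0.0721 without Fkh-labelled array 2, w1118 array 1 and w1118 array 2). Its Fkh-labelled mean lay under the limit of 33.2, so Ts was tested only because it is high on the w1118 arrays.

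Among 9 tested regulators of the step from G1 to S, 3 rose and 1 fell. E2f2, the E2F protein that represses its targets, had 294, 282 and 326 on the Fkh-labelled arrays, against 159 and 142 on the w1118 arrays, a log2 difference of 0.93 (limma adjusted p = 0.0037). Dp, the partner of E2F proteins, rose by 0.97 with 902, 917 and 603 on the Fkh-labelled arrays against 393 and 399 on the w1118 arrays (limma adjusted p = 0.0131, and 0.0722 and 0.0646 without w1118 array 1 and 2). Rbf, the retinoblastoma protein that holds E2F in check, fell by 0.95 with 84.9, 51.8 and 73.2 on the Fkh-labelled arrays against 154 and 143 on the w1118 arrays (limma adjusted p = 0.0109, and 0.0696 without w1118 array 1). CycH, a cyclin of the kinase that activates other cyclin-dependent kinases, rose by 0.77 (limma adjusted p = 0.0064). The kinase partners of the 2 members did not pass: Cdk2, the partner of CycE, had a difference of 0.37, and Cdk4, the partner of CycD, one of -0.45. Without w1118 array 2 Cdk4 passed (log2 difference -0.80, limma adjusted p = 0.0464). Cks85A did not pass (-0.45), and E2f1, dap and Myc were not analysed here.

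Among 13 listed APC genes 9 were tested, of which 2 rose and 3 fell. The core subunits Cdc16 and Cdc23 rose: Cdc16 had 171, 171 and 189 on the Fkh-labelled arrays, against 48.0 and 46.9 on the w1118 arrays (log2 difference 1.60, limma adjusted p = 0.00029). Cdc23 had 548, 565 and 246 on the Fkh-labelled arrays against 104 and 115 on the w1118 arrays (log2 difference 1.81, limma adjusted p = 0.0077, and 0.0530 without w1118 array 1). The core subunit mr (subunit 2 of the complex) fell, with 39.5, 32.9 and 36.0 on the Fkh-labelled arrays against 449 and 241 on the w1118 arrays, a 9.54-fold lower mean and a log2 difference of -2.73 (limma adjusted p = 0.00036). Its Fkh-labelled values lie near the filter's limit of 33.2, so the size of that fold is uncertain. The activator cort, known from female meiosis, fell by 0.73 (limma adjusted p = 0.0111, and 0.0731 without w1118 array 2). All 3 Fkh-labelled arrays, at 24.4 to 31.8, lay under the limit of 33.2, so cort was tested only because it is high on the w1118 arrays (52.6 and 60.5). Rca1, which inhibits the APC that fzr directs, fell by 0.61 (limma adjusted p = 0.0217), which became 0.0769 or 0.0570 when Fkh-labelled array 1 or 2 was left out and 0.124 or 0.0632 when w1118 array 1 or 2 was. The core subunit Cdc27 did not pass (0.40).

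Of 16 mitotic genes tested other than fzy, 2 rose and 6 fell, beside 21.5% and 19.3% of all genes tested. Their median difference was -0.40. The mitotic cyclin CycB, a target of the APC, fell by 0.55 with 164, 120 and 156 on the Fkh-labelled arrays against 225 and 217 on the w1118 arrays (limma adjusted p = 0.0471). CycB lost its call without Fkh-labelled array 1 (0.0682), Fkh-labelled array 2 (0.128), w1118 array 1 (0.176) and w1118 array 2 (0.142). CycB3 did not pass (-0.75, limma adjusted p = 0.0546), and did so without Fkh-labelled array 3 (0.0306) and without w1118 array 1 (0.0395). The spindle motor Klp61F and the midzone protein feo had log2 differences of 1.24 and 1.18 and both rose (limma adjusted p = 0.0050 and 0.0116). The call of feo was lost without w1118 array 1 (0.0549) and 2 (0.0695). The checkpoint gene mad2, the kinase gene aurB, the motor gene ncd and Det, the survivin of the fly, fell by 0.57 to 0.69. The number of mitotic genes that fell was 1 and 0 without Fkh-labelled array 1 and 2 and 2 and 0 without w1118 array 1 and 2, so these calls depend on the arrays used.

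Of 8 tested genes of polytene replication and the S phase checkpoint, 1 rose and 2 fell. l(2)dtl (the Cdt2 protein of the fly) is the substrate receptor with which a Cul4 ubiquitin ligase destroys proteins bound to PCNA during S phase. It had 48.7, 40.1 and 45.1 on the Fkh-labelled arrays, against 484 and 543 on the w1118 arrays. Its Fkh-labelled mean of 44.6 ± 4.33 (SD, n = 3) was 11.5-fold below the w1118 mean of 514 ± 41.7 (SD, n = 2), with a log2 difference of -3.13 and a SE of 0.15 (limma adjusted p = 2.4e-05). This is the largest difference, in either direction, of the 76 genes tested on these lists and of the 10 probe sets above. The Fkh-labelled values of l(2)dtl are dim, near the array medians of 44.5 to 49.3, so the size of its fold is uncertain. Cul4 itself rose by 0.77 with 802, 870 and 539 on the Fkh-labelled arrays against 464 and 377 on the w1118 arrays (limma adjusted p = 0.0430), a call lost without Fkh-labelled array 1 (0.117), Fkh-labelled array 2 (0.114), w1118 array 1 (0.0932) and w1118 array 2 (0.204). The checkpoint gene mus304 fell by 0.84 (limma adjusted p = 0.0153, and 0.0764 and 0.0743 without w1118 array 1 and 2).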

How the data were processed

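Per the labels' protocols, gland RNA was purified in TRIzol and RNeasy steps and turned into biotin cRNA by Affymetrix one-cycle labelling. Each deposited value is the intensity of a probe set on an array, scaled by the authors in dChip to a baseline array whose median was 134, according to the series' design text. Neither the version of dChip nor its expression model is given in the sources used here. The linear scale was read from the values, whose medians are 44.5 to 49.3 and whose maxima are 15488 to 16327. Depth has no meaning for arrays, and the number of arrays limits the precision.

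Of 18952 probe sets 183 controls were left out. Among the other 18769, the platform annotation gives 1 symbol for 13647, several for 402 and none for 4720, and 13544 of those with 1 symbol matched RefSeq Release 6 plus ISO1 MT (0 symbols changed). Values were transformed as log2(intensity + 16) and kept above the 40th percentile of mean log2 value (5.62), which left 11261. The test was limma 3.58.1 under R 4.3.3 (lmFit, eBayes), two-sided, with 3 residual degrees of freedom and 3.63 from the prior, and p was adjusted over all 11261. Of a listed gene the probe set of highest mean was used. On simulated data the procedure called 2 of 30 kept probe sets changed by 1.5-fold and 12 of 30 changed by 2-fold. It called 28 of 28 changed by 4-fold and 31 of 31 changed by 16-fold. In the same run, 9 probe sets that had not been changed were called, of 11261 tested. The simulation changed far fewer probe sets than were called here, so these counts and shares may differ from those in the data. Tables and figures were made with Python 3.11.15 and matplotlib 3.10.9.

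The genes and lists were chosen with earlier results of these data known. All members are named, and from each list at most 6 genes, called and lowest in p, and a fixed set, and of each marker list the highest and lowest difference. Alternatives changed the constant, filter, scaling, variance model, pairing, probe set choice and arrays. Sequences were not used here.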

Additional observations from a re-analysis of the deposited data

How the results depend on the processing

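The falls of PCNA and RPA1 and the rise of fzy at its brightest probe set kept their direction and passed the threshold under all 15 alternatives, and Mcm2, Mcm5, Mcm6 and CycE kept their direction and did not pass in any in which they were tested. A 60th percentile filter left out Mcm5 and the second fzy probe set. The log2 difference of CycD no longer passed with a constant of 1 (0.58), no filter (0.55), quantile normalization (0.40) or Fkh-labelled array 3 alone (0.39; this setting was added once the data had been seen, since Fkh-labelled arrays 1 and 2 were the closest pair), and ranged from 0.44 to 0.63 with 1 array left out. That of the second fzy probe set no longer passed with a constant of 64 (0.40), no filter (0.70), an intensity trend (0.70) or Fkh-labelled array 3 alone (1.025), and ranged from 0.48 to 0.93 with 1 array left out. The sign of fzr turned with median centring (0.0021), and fzr ranged from -0.25 to 0.27 with 1 array left out. Of the other named genes, the sign of Mcm10 turned without w1118 array 1 (-0.24 to 0.011 with 1 array left out), and that of RPA3 without Fkh-labelled array 1 (-0.0042 to 0.26) and with Fkh-labelled array 3 alone (-0.040). Over their alternatives 497 values kept side and sign, 82 no longer passed and 5 newly passed. Settings with fewer arrays also have fewer degrees of freedom, and the cause of these changes was not tested.

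The 3 member rises became 1 without the filter, 1 with Fkh-labelled array 3 alone and 1 to 2 with 1 array left out. The listed genes that rose and fell were 5 and 7 with Fkh-labelled array 3 alone, and 6 to 12 and 8 to 20 with 1 array left out. Over the whole table, Fkh-labelled array 3 alone gave 1337 probe sets and 1041 genes that rose and 1397 and 1069 that fell, and leaving out 1 array gave 1222 to 2309 probe sets and 944 to 1740 genes that fell.

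Samples share only a replicate number. Deviations from the group means correlated at 0.077 for the arrays numbered 1 and -0.11 for those numbered 2, and array 3 has no partner. The deviations of the 2 w1118 arrays mirror each other, so these values cannot show whether samples were paired. With the number as a replicate block, under which the members' differences equal those without Fkh-labelled array 3 but the SE and adjusted p do not, the second fzy probe set no longer passed (0.54), fzr turned sign (0.27), 2 members rose and 2 fell, and 2350 probe sets rose and 2019 fell.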

Other observations

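Chromosome bands of polytene nuclei that replicate late depend on SuUR, a protein that slows forks there. Its probe set was under the filter and was not tested, with 42.1, 33.4 and 31.8 on the Fkh-labelled arrays against 19.7 and 23.4 on the w1118 arrays, which do not overlap. The Dbf4 protein of the fly, chif, is the partner that activates Cdc7, and was named after its values were seen. The brighter of its probe sets had 759, 875 and 594 on the Fkh-labelled arrays against 642 and 578 on the w1118 arrays and did not pass (log2 difference 0.26, limma adjusted p = 0.34), whereas the other had 657, 734 and 677 on the Fkh-labelled arrays against 348 and 351 on the w1118 arrays and rose by 0.95 (limma adjusted p = 0.0028).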
